A study of Mus musculus with 12 samples.

Results

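Vimentin, nestin and a group of smooth muscle contractile genes were followed across tumourspheres of mouse mammary cancer cells. The genes were chosen by name: Vim, Acta2, Tagln, Tagln2, Cnn1, Cnn2, Myl9, Tpm1, Tpm2 and Nes, of which 8 of 10 had values among the 18278 genes of the count tables. Acta2 and Tagln were not analysed here. The groups were LM1, LM9 and their counterparts titled LM1KO and LM9KO, with 3 libraries each, and the question was whether these genes moved in the manner of a myoepithelial or myofibroblast-like state. Both lines were isolated from metastases in the lungs of NOD/SCID mice that carried transposon-mutagenised mammary cancer cells, which in turn came from a tumour of a mouse transgenic for mutant human PIK3CA. The samples titled KO are pools of single-cell clones in which CRISPR-Cas9 had been aimed at Nfib, the gene of the transcription factor NFIB, so each pool stands for a limited number of edited clones; LM1KO and LM9KO are used below as labels only. All cells were plated at 10000 per mL without attachment and cultured for 6 days with EGF and basic FGF at 20 ng/mL each. The labels do not say whether replicates were separate cultures, so the p-values measure only the spread between these libraries.

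Vimentin is the main intermediate filament of mesenchymal cells, and nestin is a larger intermediate filament protein that assembles with it. Smooth muscle and myoepithelial cells contract by sliding myosin along actin filaments. Tropomyosins lie along those filaments, calponins and transgelins bind and bundle them, and the regulatory myosin light chain encoded by Myl9 switches the motor. Many of these genes are driven by serum response factor (SRF) through a short promoter element, the CArG box. In the mammary gland this contractile set marks the basal, myoepithelial layer, and in stroma it marks myofibroblasts.

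The promoter letters are shown for 2 genes that hold a CArG box in the 250 bases before their RefSeq start (GRCm38.p6) and for Cnn1, the calponin most closely tied to smooth muscle, which holds none. The stretches are 60 bases each, lie on the plus strand and contain no annotated exon base (GENCODE M21). They are Cnn2 at chr10:79988514-79988573, Myl9 at chr2:156775274-156775333 and Cnn1 at chr9:22099156-22099215. Capitals mark a CArG box or the NFI motif TTGGC on either strand.
Cnn2: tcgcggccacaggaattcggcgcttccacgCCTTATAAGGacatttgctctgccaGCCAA
Myl9: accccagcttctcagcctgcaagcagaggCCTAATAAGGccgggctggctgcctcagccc
Cnn1: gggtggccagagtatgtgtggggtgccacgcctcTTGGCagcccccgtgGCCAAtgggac

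The CArG box began 56 bases before the start in Cnn2 and 161 bases before it in Myl9. A perfect CArG box was found in 2 of the 8 windows, against 1.47% of 32851 promoter windows of the same length. Allowing 1 mismatch added Tpm1, for 3 of 8, against 18.6% of all windows. The NFI motif TTGGC was present in 6 of 8, all but Tpm2 and Nes, against 41.5% of all windows. A full NFI site, which is that motif and its reverse complement 5 bases apart, was in 0 of 8 and in 0.0365% of all windows. These matches describe letters only, and no binding was measured here.

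Several facts about the libraries bear on every result below. Totals ran from 29249075 to 37162594 counts, and the floor of 3 counts, which covers counting error only, was 0.0730 to 0.121 CPM. CPM is the count in a gene scaled to a common size by the library total and the library's TMM factor. Nfib mRNA stood at 218 ± 22.6 CPM in LM1 and 235 ± 5.67 in the libraries labelled LM1KO (SD, n = 3), which differed by 0.11 on the log2 scale (SE 0.16, adjusted p = 0.533 in limma-voom). It stood at 154 ± 48.8 CPM in LM9 and 240.0 ± 11.2 in the libraries labelled LM9KO, a rise of 0.68 (SE 0.17, adjusted p = 0.0026), or of 0.93 (SE 0.07) without LM9 replicate 1. The mRNA was thus not lower under the knockout labels, and its level alone does not show what protein was made. Per the study's methods the clones had been picked by NFIB immunoblot, and no protein was measured in these libraries. Ero1l, an endoplasmic reticulum oxidase gene studied as a target of NFIB, was at 1089 to 1460 CPM in the parental libraries and at 50.4 to 56.4 in the knockout-labelled ones. Log2 profiles of the parental libraries correlated with those labelled knockout at r = 0.689 to 0.702, whereas LM1KO and LM9KO correlated with each other at 0.993 to 0.994. For LM9 replicate 1, r was 0.992 with the libraries of LM1 and 0.964 to 0.966 with the other LM9 libraries, and the LM9 log2 fold change of each of the 8 genes is given with and without it. Values of list genes, family shares and orders are with it unless stated. Whether that library is an LM1 culture, and whether the knockout-labelled libraries come from the cells their labels name, was not tested, and all LM9 means and knockout-label comparisons are subject to this.

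Cell type markers are given by their counts and levels. Of 10 measured luminal epithelial markers, 9 were lower in the libraries labelled LM1KO and 9 in those labelled LM9KO, the exception being Esr1, which was higher in both. Krt18, a luminal keratin, had 13423 to 18775 counts in the parental libraries and 0 to 4 in the knockout-labelled ones. Cldn3, a tight junction claudin, had 0 counts in all 6 knockout-labelled libraries and 911 to 3362 in the parental ones. Of 10 measured fibroblast and myofibroblast markers, 8 were higher and 2 lower in LM1KO, and 8 were higher and 0 lower in LM9KO, or 9 and 1 without LM9 replicate 1. Of all genes tested, 43.1% were higher and 38.1% lower in LM1KO, and 44.3% and 38.0% in LM9KO, or 47.7% and 41.2% in LM9KO without that library. Of the luminal genes 6 passed the filter on low counts through parental libraries alone, and of the fibroblast genes 3 (Pdpn, Col1a2 and Lum) did so through knockout-labelled ones alone, so their calls add no support to these counts and nothing is read from them. Pdpn, which encodes podoplanin, went from 1 to 5 counts to 15655 to 17214, and the fibrillar collagen gene Col3a1 from 0 to 11 counts to 756 to 848. The 2 that were lower in LM1KO were the matrix genes Postn, from 193.4 ± 11.7 to 1.86 ± 0.111 CPM, and Dcn, from 90.7 ± 4.57 to 11.5 ± 0.536 (SD, n = 3). Neither was called in LM9KO (log2 fold changes -0.36 and -1.18), where without LM9 replicate 1 Postn was higher (3.13, SE 0.48) and Dcn lower (-0.32, SE 0.08). The summed level of the luminal list ran from 919.5 to 1753 CPM in the parental libraries and from 34.0 to 34.9 in the knockout-labelled ones, whereas that of the fibroblast list ran from 214.0 to 541.0 and from 1989 to 2070. The part of these differences in the results for the contractile genes was not tested, and in bulk RNA fewer cells of a type cannot be told apart from less RNA per cell.

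**Figure D1:**
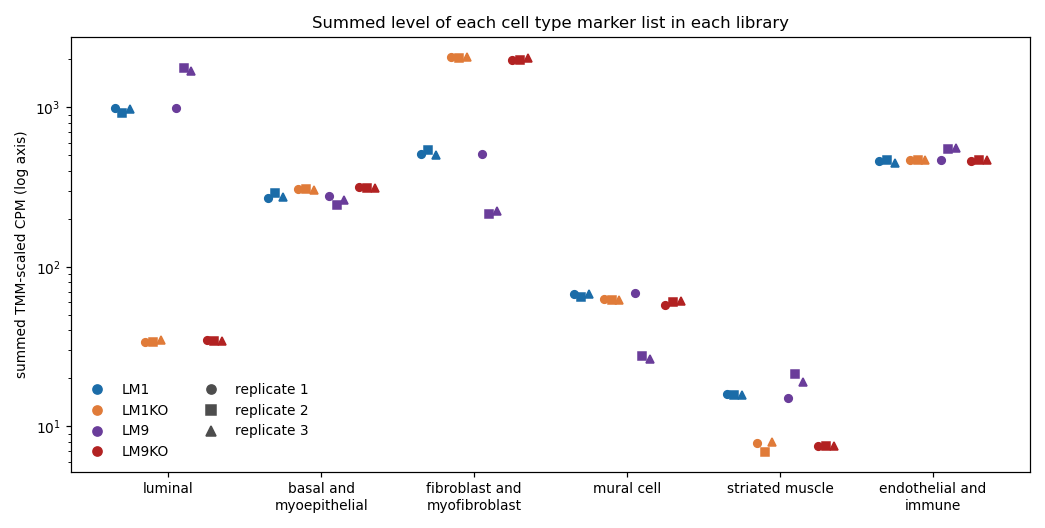
Summed TMM-scaled CPM (log axis) of each cell type marker list in each of the 12 libraries, with colours for the 4 groups and symbols for the replicates. The luminal sum lies at 34.0 to 34.9 CPM in the 6 knockout-labelled libraries and at 919.5 CPM or more in the parental ones, and the fibroblast sum lies the other way round.

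Of the 6 measured basal and myoepithelial markers, 3 were higher, 2 lower and 1 not called in LM1KO, and 3 were higher, 1 lower and 2 not called in LM9KO. Krt14, a basal keratin, rose from 0 to 8 counts to 237 to 274, whereas Itgb4, the hemidesmosomal integrin, fell from 45.9 ± 1.59 to 0.749 ± 0.127 CPM in LM1 and from 55.3 ± 7.56 to 0.677 ± 0.027 in LM9 (SD, n = 3). Trp63 fell from 17.1 ± 1.71 to 0.302 ± 0.0801 CPM in LM1. In LM9 its log2 fold change was -1.49 (SE 1.64), or 1.01 (SE 0.68) without LM9 replicate 1, and was not called either way. The summed level of the list was 271.5 to 291.7 CPM in LM1, 303.8 to 309.6 in LM1KO, 245.9 to 276.4 in LM9 and 311.0 to 315.7 in LM9KO. Krt14 and Krt17 passed the filter through knockout-labelled libraries alone. Leaving out LM9 replicate 1 gave the same counts in each line, and they lie near the shares of all genes, so nothing is read from them about the list.

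Of the 8 contractile and filament genes in the libraries labelled LM1KO against LM1, 2 were higher (Vim and Nes) and 3 were lower (Tagln2, Cnn1 and Tpm2) at an adjusted p under 0.05 (limma-voom), beside 43.1% of all 18176 tested genes higher and 38.1% lower. Past a 2-fold change, 1 was higher, beside 29.8% of all genes, and 2 were lower, beside 25.2%. In LM9KO against LM9, 2 were higher (Nes and Myl9) and 4 were lower (Tagln2, Cnn1, Cnn2 and Tpm2), beside 44.3% higher and 38.0% lower of all genes. Past a 2-fold change, 2 were higher, beside 31.3%, and 3 were lower, beside 26.1%. Against such a background, counts of this size are not a result about the 8 genes. The median log2 fold change of the 8 genes was -0.19 in LM1 and -0.39 in LM9, beside 0.08 and 0.13 over all genes tested. All 8 passed the filter on low counts, but Cnn1 did so through parental libraries alone, Tpm2 through those and 1 LM9KO library, and Myl9 with no LM9 library at the cutoff of 0.292 CPM. Genes that pass through the group where they are high tend to differ, so the calls of Cnn1 and Tpm2 as lower, and of Myl9 as higher in LM9KO, add no support to these counts.

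**Figure D2:**
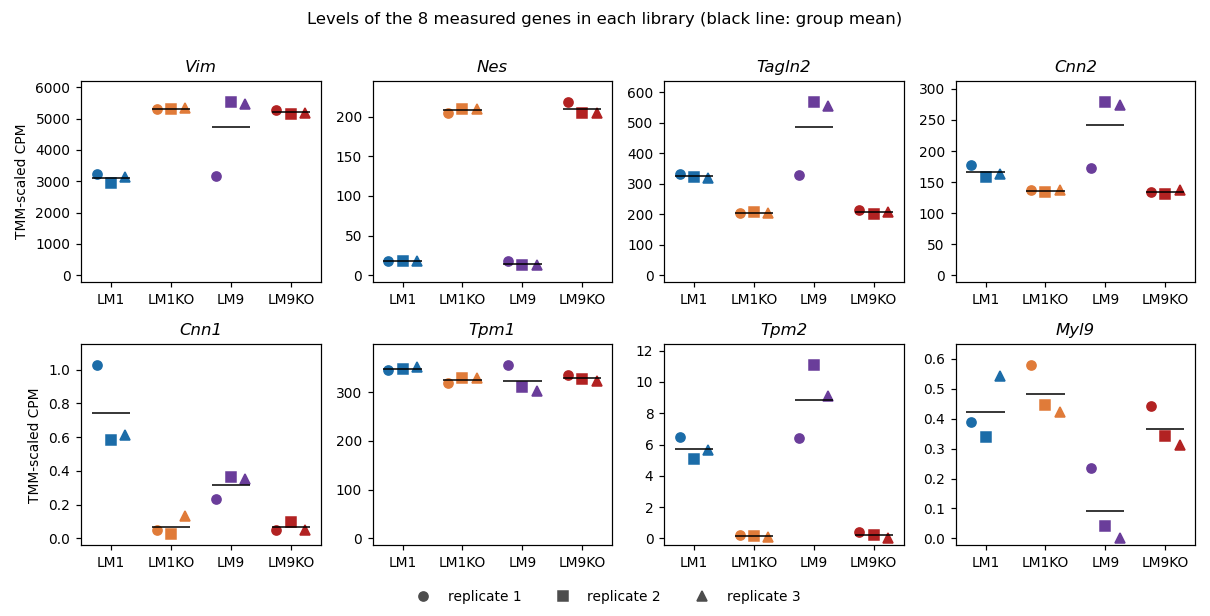
TMM-scaled CPM of the 8 measured genes in each of the 12 libraries, 1 panel per gene with its own linear axis, and a black line at each group mean. Nes separates the knockout-labelled libraries from the parental ones at every point, Cnn1 and Tpm2 do so in the other direction, and LM9 replicate 1 lies with LM1 for Vim, Tagln2 and Cnn2.

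Vim (ENSMUSG00000026728, chromosome 2, 13573927 to 13582826, plus strand, mm10) was the most abundant of the 8 in every group. It was at 3225, 2940 and 3133 CPM in the LM1 libraries and at 5304, 5309 and 5330 in those labelled LM1KO. The groups did not overlap, and the level was 1.72-fold higher in LM1KO (log2 fold change 0.78, SE 0.17, adjusted p = 0.0011). In LM9 it was at 3179, 5543 and 5468 CPM, and in LM9KO at 5270, 5158 and 5196. The LM9 libraries thus lay on either side of the LM9KO ones, with replicate 1 at the LM1 level and the other two above every knockout-labelled library. With all LM9 libraries the log2 difference was 0.18 (SE 0.17, adjusted p = 0.328) and did not pass the test. Without LM9 replicate 1, Vim was slightly lower in LM9KO, at -0.08 (SE 0.03, adjusted p = 0.013), in a fit in which 88.9% of all 18246 genes tested were called. Sample quality weights over all 12 libraries gave -0.07. Total counts with no scaling factors and all libraries gave 0.54 (adjusted p = 0.0016), where the median of all genes moved to 0.49. The direction of Vim in LM9 therefore depended on 1 library and its weight, and the call also on the scaling, whereas in LM1 the difference was 0.75 to 1.00 under the 20 alternatives run.

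Nes (ENSMUSG00000004891, chromosome 3, 87971078 to 87980451, plus strand) changed most upwards of the 8 genes. It was at 18.4, 17.3 and 18.2 CPM in LM1 and at 204.6, 210.0 and 209.6 in LM1KO, which is 11.6-fold higher (log2 fold change 3.54, SE 0.10, adjusted p = 6.83e-11). It was at 17.9, 12.2 and 12.9 CPM in LM9 and at 219.2, 205.2 and 204.6 in LM9KO, which is 14.6-fold higher (3.88, SE 0.11, adjusted p = 5.69e-11). The knockout-labelled libraries lay within 204.6 to 219.2 CPM and no parental library exceeded 18.4. Leaving out LM9 replicate 1 gave 4.06 (SE 0.07). Per length of exons, Nes took 0.426% of the summed level of 8 type III and IV intermediate filament genes in LM1 and 2.76% in LM1KO, and 0.251% in LM9 and 2.84% in LM9KO, while Vim held 99.4% in LM1 and 95.5% in LM1KO.

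Of 10 other measured intermediate filaments and linkers, 9 were higher and 0 lower in each line, beside 43.1% and 44.3% of all genes higher in LM1KO and LM9KO, with a median log2 fold change of 2.31 in LM1 and 2.98 in LM9. Only the muscle filament gene Des was not called in either (-0.07 and 0.85). Prph, which encodes the neuronal filament peripherin, rose from 0.773 ± 0.298 to 34.7 ± 1.57 CPM in LM1 and from 0.549 ± 0.227 to 34.4 ± 0.917 in LM9 (SD, n = 3). The neurofilament gene Nefl had 0 counts in all 6 parental libraries and 47 to 68 in the knockout-labelled ones. All 10 were higher in LM9KO and 9 in LM1KO without LM9 replicate 1, a fit in which 47.7% and 46.4% of all genes were higher. Ina, Nefl and Gfap passed the filter on low counts through the knockout-labelled libraries, so their calls as higher add no support to these counts and nothing is read from the median.

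The genes whose profiles across the 12 libraries lay closest to that of Vim, among 10279 genes at a mean of at least 10 CPM, were Csnk2b, a casein kinase subunit gene, Nol7 and the acyl-CoA synthetase gene Acsl5, with root mean square log2 distances of 0.045, 0.045 and 0.047. Csnk2b was at 74.4 CPM in LM1, 122.6 in LM1KO, 111.6 in LM9 and 117.6 in LM9KO on average. For Nes they were Samd12, the prolyl endopeptidase gene Prep and Scrn1, at distances of 0.086, 0.1 and 0.104. Samd12 went from 28.4 CPM in LM1 to 330.1 in LM1KO.

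Tagln2 (ENSMUSG00000026547, chromosome 1, 172500047 to 172507380, plus strand), a widely expressed transgelin that binds actin, was lower in the knockout-labelled libraries of each line. It was at 332.8, 322.6 and 319.9 CPM in LM1 and at 202.0, 206.9 and 203.8 in LM1KO, a fall to 0.628 of the level (log2 fold change -0.67, SE 0.16, adjusted p = 0.0024). In LM9 it was at 329.5, 568.5 and 553.9 CPM, and in LM9KO at 212.0, 200.3 and 205.9, a fall to 0.426 (-1.19, SE 0.16, adjusted p = 3.03e-05). No library of a knockout-labelled group reached its parental group. In LM9 it was -1.44 (SE 0.03) without replicate 1.

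The calponins Cnn1 and Cnn2 differed greatly in level. Cnn2 (ENSMUSG00000004665, chromosome 10, 79988584 to 79996062, plus strand), the broadly expressed form, was at 176.9, 157.3 and 163.3 CPM in LM1 and at 136.5, 134.0 and 136.8 in LM1KO. The groups did not overlap, but the log2 difference of -0.29 (SE 0.15, adjusted p = 0.093) did not pass the test with all 12 libraries, and did without LM9 replicate 1 (-0.28, SE 0.04, adjusted p = 2.76e-06), a fit whose shared spread is smaller and in which 88.6% of all genes were called. On total counts it was -0.06 (adjusted p = 0.610), where the median of all genes moved from 0.08 to 0.31. It was at 172.8, 279.5 and 273.5 CPM in LM9 and at 134.7, 131.1 and 137.1 in LM9KO (-0.81, SE 0.15, adjusted p = 0.0003). It was -1.04 (SE 0.04) without LM9 replicate 1 and -0.46 (SE 0.11) on total counts, where the median of all genes was 0.49.

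Cnn1 (ENSMUSG00000001349, chromosome 9, 22099216 to 22109630, plus strand), the calponin used as a marker of smooth muscle and myoepithelium, had 29, 19 and 17 counts in LM1, 7, 9 and 9 in LM9, 2, 1 and 5 in LM1KO and 2, 4 and 2 in LM9KO. It was scarce in every library and nearly absent from the knockout-labelled ones, where most values were at or under 3 counts. From the summed counts, LM1 was 10.6 times LM1KO (exact 95% interval 5.09 to 25.7, counting error only) and LM9 was 4.62 times LM9KO (2.02 to 11.9). The limma-voom log2 fold changes were -3.36 (SE 0.45) and -2.08 (SE 0.47), and -2.28 (SE 0.53) in LM9 without replicate 1. They are given without a p because the gene reached the filter through parental libraries alone. Per length of exons, Cnn1 gave 0.143% of the summed calponin level in LM1 and 0.0206% in LM1KO, and the rest came from Cnn2 and Cnn3, the latter at 64.2% and 55.1%. Cnn3, the calponin of non-muscle cells, was itself lower in LM1KO (-0.84) and in LM9KO (-0.73), and the summed calponin level went from 188.9 ± 2.46 to 123.0 ± 1.17 CPM per kb of exons in LM1 and from 215.3 ± 20.9 to 125.1 ± 0.477 in LM9 (SD, n = 3).

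The tropomyosins split in the same way between an abundant and a scarce gene. Tpm1 (ENSMUSG00000032366, chromosome 9, 67022590 to 67049406, minus strand), which makes muscle and non-muscle isoforms by splicing that gene counts cannot separate, was at 346.4, 348.2 and 351.3 CPM in LM1 and at 318.9, 328.6 and 329.3 in LM1KO. The LM1KO libraries lay just below, at a log2 difference of -0.10 (SE 0.06, adjusted p = 0.160) that did not pass the test and turned to 0.12 on total counts. In LM9 it was at 355.9, 310.2 and 302.6 CPM and in LM9KO at 335.8, 328.1 and 323.5, which overlapped (0.03, SE 0.06, adjusted p = 0.653). Without LM9 replicate 1 the differences passed the test at -0.10 (adjusted p = 0.0029) in LM1 and 0.11 (adjusted p = 0.0037) in LM9, beside 88.6% and 88.9% of all genes called. On total counts the LM9 value was 0.38 (adjusted p = 0.0023), where the median of all genes was 0.49 in LM9 and 0.31 in LM1.

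Tpm2 (ENSMUSG00000028464, chromosome 4, 43514711 to 43523765, minus strand), a tropomyosin abundant in smooth and slow skeletal muscle, showed the largest fall of the 8. It had 183, 166 and 156 counts in LM1 and 9, 6 and 4 in LM1KO, so that LM1 was 34.8 times LM1KO (exact 95% interval 22.1 to 58.3, counting error only). It had 190, 275 and 231 counts in LM9 and 16, 8 and 2 in LM9KO, for a ratio of 39.6 (26.8 to 61.1). The limma-voom log2 fold changes were -5.07 (SE 0.54) and -5.58 (SE 0.52), given without a p since Tpm2 passed the filter almost entirely through the parental libraries. In LM9 the value was -5.80 without LM9 replicate 1, -4.85 without LM9KO replicate 3 and -6.19 without LM9KO replicate 1, the libraries with 2 and 16 counts. Per length, Tpm2 gave 0.97% of the summed tropomyosin level in LM1 and 0.0303% in LM1KO, and 1.46% in LM9 and 0.0403% in LM9KO. Tpm4 led in every group, at 59.3% in LM1 and 54.8% in LM1KO, and was lower in LM1KO (-0.25) and LM9KO (-0.38), whereas Tpm3 was higher (0.29 and 0.68).

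**Figure D3:**
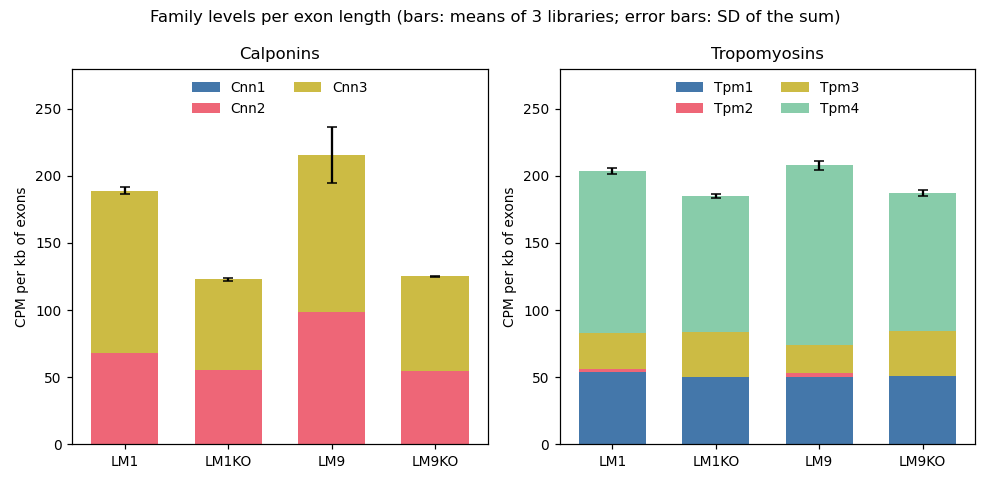
Mean CPM per kb of exons of the calponin and tropomyosin genes, stacked by gene for each group (n = 3), with error bars for the SD of the summed level. Cnn1 and Tpm2 give at most 0.143% and 1.46% of a stack, and the calponin sum is 123.0 and 125.1 in LM1KO and LM9KO against 188.9 and 215.3 in LM1 and LM9.

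The ratio between paralogs within a library does not depend on the scaling of libraries. The log2 ratio of Cnn1 to Cnn2 (0.5 added to each count) was -7.97 ± 0.36 in LM1 and -11.1 ± 0.944 in LM1KO, and -9.63 ± 0.056 in LM9 and -10.9 ± 0.466 in LM9KO (SD, n = 3). That of Tpm1 to Tpm2 was 4.77 ± 0.18 and 9.76 ± 0.527 in LM1 and LM1KO, and 4.06 ± 0.513 and 9.69 ± 1.34 in LM9 and LM9KO. The groups did not overlap in any of these 4 comparisons, which are given without a test for the reason stated for Cnn1 and Tpm2. The count filter fixes much of that separation and no share over other gene pairs was computed, so nothing is read from it. Without LM9 replicate 1 the LM9 differences were -1.25 and 5.91, against -1.28 and 5.63 with it, and the second ran from 4.91 without LM9KO replicate 3 to 6.24 without LM9KO replicate 1.

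Myl9 (ENSMUSG00000067818, chromosome 2, 156775420 to 156781658, plus strand), the smooth muscle form of the regulatory myosin light chain, was also near the floor. It had 11, 11 and 15 counts in LM1 and 23, 17 and 16 in LM1KO, whose ratio of 1.16 had an interval that holds 1 (exact 95% interval 0.75 to 1.8, counting error only), and the log2 difference of 0.19 (SE 0.47, adjusted p = 0.712) did not pass the test. It had 7, 1 and 0 counts in LM9 and 17, 14 and 12 in LM9KO, for a ratio of 3.63 (1.69 to 8.95) and a log2 fold change of 2.44 (SE 0.63), given without a p since no LM9 library reached the filter's cutoff. Without LM9 replicate 1, which holds 7 of the 8 counts, that value was 3.44 (SE 0.60), and without LM9 replicate 3, which holds 0, it was 1.56 (SE 0.52). It ran from 1.56 to 3.48 over the 20 alternatives. Reads of Myl9 could be split with its close paralogs Myl12a and Myl12b, since how the authors counted reads with several alignments is not given in the sources used here. Those paralogs were far more abundant, and both fell, Myl12a by 0.70 and 0.79 on the log2 scale in LM1 and LM9.

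**Figure D4:**
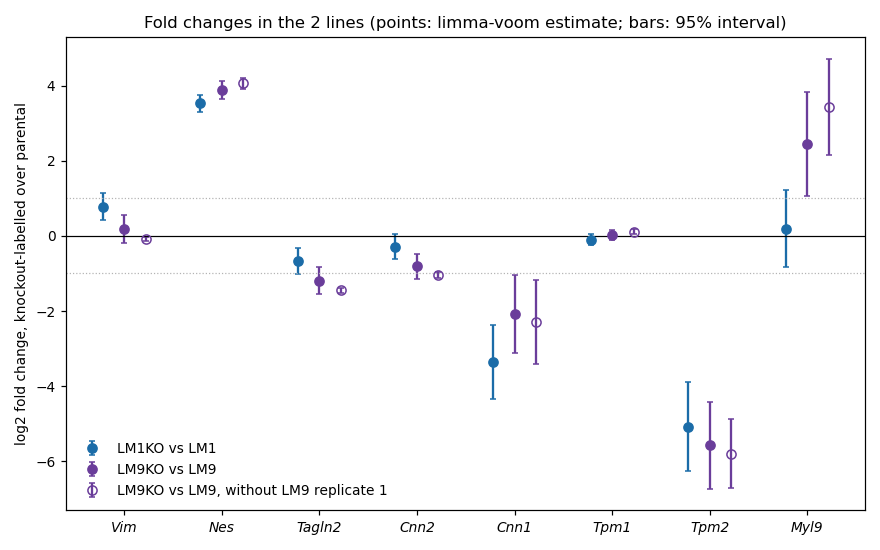
Log2 fold change of the knockout-labelled over the parental libraries for the 8 genes (limma-voom estimates with 95% intervals), in LM1, in LM9 and in LM9 without replicate 1 (open circles), with dotted lines at a 2-fold change. Nes lies above 3 in each case and Tpm2 below -5, whereas Vim is 0.78 in LM1, 0.18 in LM9 and -0.08 in LM9 without replicate 1.

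Whether the knockout-label difference itself differed between the lines was tested in the same fit. None of the 8 genes passed (adjusted p from 0.202 to 0.653), beside 0% of all genes called. An unadjusted p under 0.05 was reached by 5 of the 8, beside 4495 of the 18176 genes tested. The edgeR quasi-likelihood test and DESeq2 also called 0 of the 8, beside 0.00550% and 0.386% of all genes. The differences, as the LM1 contrast minus the LM9 contrast, were 0.60 (SE 0.24) for Vim, 0.52 (SE 0.23) for Tagln2, 0.53 (SE 0.21) for Cnn2 and -2.24 (SE 0.78) for Myl9. That of Myl9 was -3.24 (SE 0.67) without LM9 replicate 1 and -1.36 (SE 0.63) without LM9 replicate 3. Without LM9 replicate 1, 6 of the 8 passed, all but Cnn1 and Tpm2, in a fit that called 57.2% of all genes. Vim then differed by 0.86 (SE 0.04, adjusted p = 1.12e-11). Myl9 is among the 6, but no LM9 library reached the filter's cutoff for it, so its call adds no support to that count.

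The parental lines and the knockout-labelled groups were then compared with each other, on the same libraries as above. Between LM1 and LM9 the 8 genes did not pass the test with all libraries (adjusted p from 0.0543 to 0.164), beside 0.00550% of all genes. An unadjusted p under 0.05 was reached by 7 of the 8, beside 8661 of the 18176 genes tested. The edgeR quasi-likelihood test called 0 of the 8 and DESeq2 called 5, beside 0.00550% and 33.1% of all genes. Without LM9 replicate 1 all 8 passed, beside 65.7% of all genes. Myl9 had no LM9 library at the filter's cutoff and Cnn1 had 1, against 3 LM1 libraries each. Their calls therefore add no support to these counts. With that library left out, Vim, Tagln2, Cnn2 and Tpm2 were lower in LM1 than in LM9, at -0.83 (SE 0.03), -0.79 (SE 0.03), -0.74 (SE 0.04) and -0.82 (SE 0.16). Cnn1, Tpm1, Nes and Myl9 were higher in LM1, at 0.95 (SE 0.40), 0.19 (SE 0.03), 0.51 (SE 0.08) and 3.63 (SE 0.61). For Myl9 the value was 2.64 (SE 0.64) with all libraries, and it ran from 1.75 to 3.86 over the alternatives run. LM9 replicate 1 lay within 0.06 of the LM1 mean on the log2 scale for Vim, Nes, Tagln2, Cnn2 and Tpm1 and 0.17 above it for Tpm2, but 1.54 below it for Cnn1 and 0.77 below it for Myl9, where 7 counts stand behind each value.

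**Figure D5:**
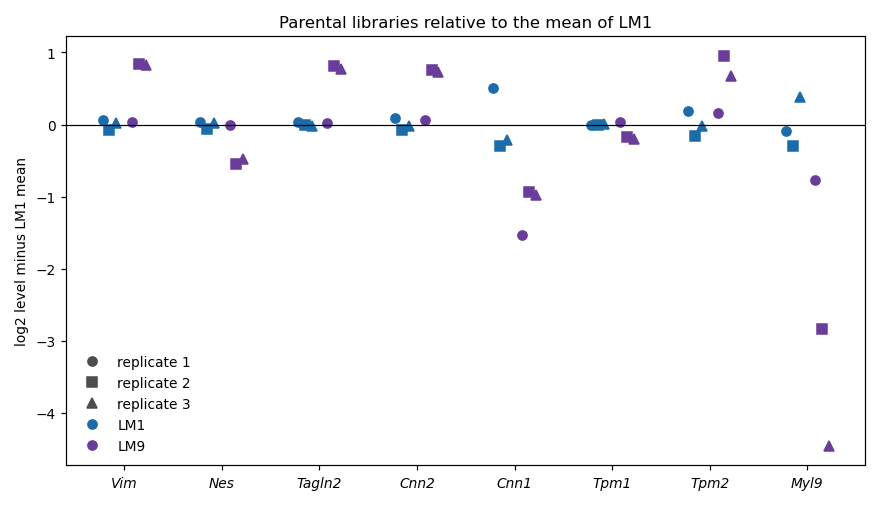
Log2 level of each gene in the 6 parental libraries, as the difference from the mean of LM1, with symbols for the replicates. LM9 replicate 1 lies at the LM1 level for Vim, Nes, Tagln2, Cnn2 and Tpm1, apart from the other two LM9 libraries, and the low points of Myl9 rest on 7, 1 and 0 counts.

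Between LM1KO and LM9KO, by contrast, 0 of the 8 passed (limma-voom adjusted p = 0.9999 for each), and edgeR and DESeq2 called 0, beside 0% of all genes. An unadjusted p under 0.05 was reached by 0 of the 8, beside 178 of the 18176 genes tested. The log2 differences ran from -0.13 for Cnn1 to 0.40 for Myl9. Over the alternatives run, Tpm2 ranged from -0.80 to 0.54 and Cnn1 from -0.64 to 0.30. The 95% interval was -0.34 to 0.40 for Vim and -0.20 to 0.18 for Nes. It was wider for the scarce genes, at -1.63 to 1.465 for Tpm2, -1.3 to 1.04 for Cnn1 and -0.61 to 1.4 for Myl9. Differences within these intervals were not detectable here. The spread is shared with the parental groups. When LM9 replicate 1 was left out, the intervals were -0.02 to 0.08 for Vim and -0.08 to 0.06 for Nes, but -1.36 to 1.19 for Tpm2.

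The order of the levels per length of exons was partly common to the groups. Vim led, at 619.8 to 680.1 CPM per kb in LM1, 1118 to 1124 in LM1KO, 670.2 to 1169 in LM9 and 1088 to 1111 in LM9KO, followed in each group by Tagln2, Cnn2 and Tpm1, with no overlap of neighbours in these positions. In LM1, Nes and Tpm2 came next, at 2.80 and 1.97 CPM per kb. In LM9 their means were 2.24 and 3.05, and they overlapped through replicate 1 alone, since Tpm2 lay above Nes in the other two libraries. In LM1KO and LM9KO, Nes at 32.4 and 32.7 stood well above Myl9 (0.415 and 0.314), Tpm2 and Cnn1, the last 2 of which overlapped.

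Other genes of the contractile apparatus were taken from gene lists. Of 17 measured genes of contractile and actin-binding proteins, 5 were higher, 10 lower and 2 not called in LM1KO, and 4 were higher, 10 lower and 3 not called in LM9KO, with medians of -0.625 and -0.728. The shares over all genes were 43.1% higher and 38.1% lower in LM1KO and 44.3% and 38.0% in LM9KO, which hold for the lists that follow too, and no list is called particular against them. Csrp1, a LIM domain protein gene of smooth muscle, fell from 234.8 ± 6.67 to 17.8 ± 0.612 CPM in LM1 and from 313.9 ± 66.3 to 17.7 ± 0.866 in LM9, and the focal adhesion gene Tns1 from 153.1 ± 5.78 to 16.0 ± 0.658 and from 143.8 ± 16.5 to 16.7 ± 0.944 (SD, n = 3). The filamin gene Flna rose by contrast, with log2 fold changes of 2.58 and 2.57, and so did the myosin light chain kinase gene Mylk (1.71 and 1.97). When LM9 replicate 1 was left out, 7 were higher and 10 lower in LM1KO, and 4 higher and 13 lower in LM9KO, beside 46.4% higher and 42.1% lower of all genes in LM1KO and 47.7% and 41.2% in LM9KO. The summed level of the list was 3601 to 3663 CPM in the knockout-labelled libraries and 3641 to 4252 in the parental ones.

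Of 9 identifiers of actins and non-muscle myosins, 3 were higher, 4 lower and 2 not called in LM1KO, and 3 were higher, 5 lower and 1 not called in LM9KO. Actb, the cytoplasmic actin, rose from 653.9 ± 15.1 to 2523 ± 57.2 CPM in LM1 and from 962.8 ± 264.0 to 2459 ± 64.3 in LM9, whereas the non-muscle myosin heavy chain gene Myh10 fell from 270.4 ± 16.6 to 30.5 ± 0.503 and from 276.3 ± 25.7 to 29.5 ± 1.71 (SD, n = 3). Myl12b had 2 identifiers, and how its reads were split between them was not tested.

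Among 9 measured genes of SRF, its MRTF coactivators and regulators of contraction, 4 were higher and 5 lower in LM1KO, and 4 were higher, 4 lower and 1 not called in LM9KO. Mrtfa rose from 45.8 ± 3.54 to 115.1 ± 3.73 CPM in LM1 and from 36.5 ± 6.77 to 111.3 ± 1.13 in LM9 (SD, n = 3), while Srf was lower (-0.36 and -0.93). Ppp1r14a, which encodes an inhibitor of myosin phosphatase found in smooth muscle, went from 10 to 23 counts in the parental libraries to 1 to 5, and passed the filter through the former alone.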

How the data were processed

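RNA-seq of 12 tumoursphere libraries was used. Per the labels and the study's methods, the authors made stranded poly-A libraries, sequenced single ends, aligned with STAR to mm10 and counted read 5' ends over the union of each gene's exons with QuasR. The versions, the annotation and the use of strand in counting are not given in the sources used here. What the authors deposited were raw counts, with 1 file per library. Every listed gene had at least 8 counts in 3 or more libraries, and no scarcer gene was listed. The setting below with no count filter does not bring such genes back. Names, coordinates and exon lengths came from GENCODE M21, which matched 18268 of 18278 identifiers.

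The main test was limma-voom (limma 3.58.1, edgeR 4.0.16, R 4.3.3): filterByExpr with a count minimum of 10 and a total minimum of 15, TMM factors, 1 mean per group over all 12 libraries, two-sided moderated tests and Benjamini-Hochberg adjustment over the 18176 genes tested. CPM values are TMM-scaled. Alternatives were the edgeR quasi-likelihood test, DESeq2 1.42.0, median-ratio factors, total counts, no count filter, the replicate block, quality weights, only the groups compared, and each library left out in turn. The limma-voom code was also run on simulated counts.

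The genes, the 10 lists and the tests were chosen with earlier results of these data known. Besides the genes chosen by name, the text names for Vim and Nes the 3 closest profiles, and from each list the 2 largest mean changes called with the same sign in both lines. Other list genes (Esr1, Postn, Dcn, Notch3, Krt17, Trp63, Col1a2, Lum, Des, Ina, Gfap, Flna, Mylk, Cnn3, Tpm3, Tpm4, Myl12a, Myl12b, Srf, Csf1r, Cd68, Tnnt2 and Tnnc1) were named after their values were seen, and Ero1l from the study's question. List genes without values were not analysed here, and neither were the Acta2 profile and the ratio of Tagln to Tagln2.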

Additional observations from a re-analysis of the deposited data

How the results depend on the processing

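Under 8 other settings and with each of the 12 libraries left out in turn, Tagln2 and Nes kept their direction and their call in both lines. Cnn1 and Tpm2 kept their direction, but the count filter fixes much of that, and Cnn1 had no value in LM9 when only the groups compared were fitted, where 5 genes in place of 6 were called. In LM1KO against LM1, 7 in place of 5 were called with quality weights, with only the groups compared and without LM9 replicate 1, beside 89.3%, 89.4% and 88.6% of all genes. In LM9KO against LM9, 7 were called with quality weights and 8 on total counts and without that library, beside 88.7%, 82.5% and 88.9%, and 76.5% with only the groups compared. For Vim in LM9KO against LM9, leaving out 1 library gave -0.076 to 0.322, and the lowest value, without LM9 replicate 1, reversed the sign. Members called for the difference between the lines numbered 6 with sample quality weights, beside 58.1% of all genes, and 0 to 6 with 1 library left out. Members called between LM1 and LM9 numbered 5 with DESeq2, 6 on total counts and 7 with quality weights, beside 33.1%, 28.8% and 63.8%, and 0 to 8 with 1 library left out. In each, the highest count was that without LM9 replicate 1 beside 57.2% and 65.7%, and the other 11 gave 0. Calls of Myl9 in these counts, and of Cnn1 between LM1 and LM9, add no support, for the reason given above. With the replicate block, 5 genes were called in LM1 and 6 in LM9, as without it, and no other call of the 8 genes changed; correlations of same-numbered deviations were -0.059 to 0.025, so the numbers gave no sign of pairing. Counts in the single digits limit Cnn1, Myl9 and Tpm2 in the groups where they are low.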

Other observations

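Marker lists of striated muscle, endothelial and immune, and mural cells are given here by their counts. Of 4 measured striated muscle markers, 2 were higher and 2 lower in each line. Myod1, the myogenic transcription factor, had 0 counts in the 6 parental libraries and 25 to 47 in the knockout-labelled ones, and the fast troponin gene Tnnc2 went from 0 to 3 counts to 26 to 35, and both passed the filter on low counts through the latter alone, while the cardiac and slow forms Tnnt2 (-1.72 and -2.01) and Tnnc1 (-0.86 and -1.10) were lower. Of 5 measured endothelial and immune markers, 3 were higher, 1 lower and 1 not called in each line, or 3 higher and 2 lower in LM9KO without LM9 replicate 1. The 3 higher ones (Kdr, Cdh5 and Csf1r) passed the filter through the knockout-labelled libraries alone, so nothing is read from these counts. Kdr, the VEGF receptor of endothelial cells, had 0 to 2 counts in the parental libraries and 10595 to 11873 in the knockout-labelled ones, and the endothelial cadherin gene Cdh5 had 0 to 1 and 2616 to 2867. Csf1r, a receptor of macrophages, had at most 1 count in a parental library and up to 514 in a knockout-labelled one, whereas the macrophage marker Cd68 was lower (-2.19 and -2.40). Of 3 measured mural cell markers, 0 were higher and 1 lower in LM1KO, and 1 was higher and 1 lower in LM9KO, with 1 higher and 1 lower in LM1KO too when LM9 replicate 1 was left out. Mcam fell from 31.3 ± 0.377 to 0.207 ± 0.0279 CPM in LM1 and from 25.9 ± 5.14 to 0.245 ± 0.0323 in LM9 (SD, n = 3). Notch3, a receptor of mural cells, had log2 fold changes of 0.82 (adjusted p = 0.098 in limma-voom, not called) in LM1 and 2.87 (adjusted p = 0.00059) in LM9, or 4.07 (SE 0.13) in LM9 without LM9 replicate 1.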
